A study of Mus musculus with 4 samples.

Results

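The genes described here are 9 neuronal genes of the mouse, *Neurog1*, *Neurod1*, *Elavl3*, *Elavl4*, *Snap25*, *Syt1*, *Gap43*, *Stmn2* and *Uchl1*, taken by gene symbol from the 23997 genes of the deposited RNA-Seq table. All 9 symbols had a row. The study compared EGFP+ cells sorted from Lgr5-EGFP-IRES-CreERT2 mice, called Lgr5+ progenitors, with EGFP+ cells sorted from Lgr6-EGFP-IRES-CreERT2 mice, called Lgr6+ progenitors. Both came from the cochlea of C57BL/6 mice at postnatal day 3, and EGFP in each line reports the named Lgr gene. The labels list 2 libraries for each population, 4 in all. According to the methods, replicates were 3 fractions of the same RNA, so they share one extraction. Each population has 1 combined FPKM value a gene in the table. FPKM is a fragment count divided by transcript length and by the size of the library, so levels of different genes can be set side by side. Where 2 values of a gene follow each other below, that of Lgr5+ progenitors comes first. With 1 combined value, how far replicates differ cannot be seen. The differences were therefore not tested again here, and no *p*-value is printed. The authors' own comparison lists a *p*-value and a q-value, which were not used. From it the paper reports *Hes5* and *Hey2*, named below, as significantly higher in Lgr5+ progenitors, with q-PCR in the same direction.

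Spiral ganglion neurons carry the signal of the cochlear hair cells to the brainstem. They arise from the otic epithelium, where the proneural factor Neurog1 starts the neuronal lineage and Neurod1, which acts after it, supports differentiation and survival. The RNA-binding proteins Elavl3 and Elavl4 mark cells that have taken the neuronal path, and Gap43 and Stmn2 are growth cone proteins of extending axons. Snap25 and Syt1 belong to the machinery that fuses vesicles with the membrane, and Uchl1 is a ubiquitin hydrolase that neurons hold in large amounts. Several of these proteins are not exclusive to neurons, and Snap25 and other vesicle proteins are also found in hair cells.

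The levels of the 9 genes ran from 0 to near the top of the table. *Uchl1* was among the highest genes of both populations, at rank 162 in Lgr5+ progenitors and rank 163 in Lgr6+ progenitors. At the other end, *Neurog1* was listed at 0 in both populations. *Neurod1* and *Elavl3* stayed below an FPKM of 0.1 in both. A gene was kept if either population reached an FPKM of 1, and 6 of the 9 genes and 13436 of all 23997 genes met this condition. *Neurog1*, *Neurod1* and *Elavl3* did not. A gene that is high in 1 population only passes this condition through that population.

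To show the extremes of this range beside the genome, the promoter windows of the proneural pair are printed with those of *Syt1*, which was higher in Lgr5+ progenitors, and *Uchl1*, the highest member. Each window holds 300 bases of the RefSeq annotation of GRCm38.p6, from 250 bases before to 50 bases after the annotated start, 5′ to 3′ on the strand of the gene. Capitals mark the E-box CANNTG, the letters that proneural bHLH factors such as Neurog1 and Neurod1 bind, which read the same on both strands. The window of *Neurog1* is chr13:56252131-56252430 on the minus strand, that of *Neurod1* chr2:79456587-79456886 on the minus strand, the window of *Syt1* farthest upstream chr10:109010926-109011225 on the minus strand, and that of *Uchl1* chr5:66675871-66676170 on the plus strand.
Neurog1: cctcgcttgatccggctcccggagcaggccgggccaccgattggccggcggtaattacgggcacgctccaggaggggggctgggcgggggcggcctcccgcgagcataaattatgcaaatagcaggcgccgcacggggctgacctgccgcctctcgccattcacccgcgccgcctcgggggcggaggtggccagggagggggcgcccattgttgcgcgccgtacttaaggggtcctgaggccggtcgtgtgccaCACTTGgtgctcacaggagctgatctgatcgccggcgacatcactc
Neurod1: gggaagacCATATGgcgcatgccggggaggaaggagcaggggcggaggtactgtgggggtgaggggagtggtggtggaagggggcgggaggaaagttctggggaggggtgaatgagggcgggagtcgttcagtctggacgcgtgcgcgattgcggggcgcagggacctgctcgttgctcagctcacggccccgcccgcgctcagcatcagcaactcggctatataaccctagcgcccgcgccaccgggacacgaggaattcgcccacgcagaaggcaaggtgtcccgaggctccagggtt
Syt1: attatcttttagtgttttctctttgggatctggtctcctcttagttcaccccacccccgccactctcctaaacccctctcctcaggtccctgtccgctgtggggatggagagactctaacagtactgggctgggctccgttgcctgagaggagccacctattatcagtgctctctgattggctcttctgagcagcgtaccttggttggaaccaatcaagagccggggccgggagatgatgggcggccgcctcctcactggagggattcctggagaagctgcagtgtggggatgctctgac
Uchl1: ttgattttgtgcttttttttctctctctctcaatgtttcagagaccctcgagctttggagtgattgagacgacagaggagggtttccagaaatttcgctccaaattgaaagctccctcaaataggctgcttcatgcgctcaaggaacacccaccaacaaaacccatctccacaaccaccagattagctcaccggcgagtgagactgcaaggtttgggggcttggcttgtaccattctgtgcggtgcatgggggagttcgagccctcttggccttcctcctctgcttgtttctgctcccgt

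The windows of *Neurog1* and *Neurod1* each held 1 E-box, and those printed for *Syt1* and *Uchl1* held 0. Another window of *Syt1* held 3, and the 4 windows of *Elavl4* held between 0 and 4. Among all 32851 windows of this length in the annotation table, 72.3% held at least 1, so a match is common. The GC content was 69.3% for *Neurog1* and 66.7% for *Neurod1*, against 56.7% for *Syt1* and 50.7% for *Uchl1* and a median of 52.7% over all windows. *Neurog1* had 32 CG dinucleotides and *Neurod1* had 26, whereas *Syt1* had 8 and *Uchl1* had 9, against a median of 7. *Elavl3*, the other member below an FPKM of 0.1, had 29 CG dinucleotides and 2 E-boxes. Those of *Elavl4* had 4 to 23. The 3 members with the lowest levels thus had the windows with the most CG dinucleotides among the 10 windows of the members. The letters TTCAGCACC, the left part of the element bound by the repressor Rest, searched on both strands, were in 0 of the 10 windows of the members and in 0.371% of all windows. RefSeq windows were matched for 6 of the 9 members, and *Snap25*, *Gap43* and *Stmn2* had no entry.

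The proneural factors were at the floor of the table. *Neurog1* (chr13:56250498-56252163) had FPKM values of 0 in Lgr5+ and 0 in Lgr6+ progenitors. *Neurod1* (chr2:79452641-79456636) had 0.0209 in Lgr5+ progenitors and was listed at 0 in Lgr6+ progenitors. Neither gene can be ranked between the populations at these values. A listed 0 can also be a failed estimate. Low FPKM values of genes with 1 annotated transcript fell on steps, as whole fragments would give, with 101 genes at the first step against an average of 5.5 beside it in Lgr5+ progenitors. As FPKM times the kilobases of transcript, after taking off 200 bases, the step was 0.129 in Lgr5+ and 0.0401 in Lgr6+ progenitors. For *Neurog1*, 1 step would be an FPKM of 0.0882 in Lgr5+ and 0.0275 in Lgr6+ progenitors. The *Neurod1* value in Lgr5+ progenitors came to 0.357 of 1 step, so it is less than what 1 such fragment would give. The step gives a relative depth only, and it is not known whether it stands for 1 fragment of 1 library.

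The other members of the proneural family were also low. *Neurog2*, *Neurog3* and *Neurod4* were listed at 0 in both populations, and *Neurod2* had FPKM values of 0.132 in Lgr5+ and 0.0372 in Lgr6+ progenitors. *Neurod6*, a bHLH factor of forebrain neurons, was the 1 family member of 7 that was kept, with 2.04 in Lgr5+ and 0.654 in Lgr6+ progenitors.

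The neuronal Elavl proteins bind AU-rich elements and steady the messenger RNAs of differentiating neurons. *Elavl3* (chr9:22015005-22052023) had FPKM values of 0.0536 in Lgr5+ and 0.0703 in Lgr6+ progenitors, which is 2.01 steps in the former and 8.46 in the latter. *Elavl4* (chr4:110203737-110351911) had 0.634 in Lgr5+ and 1.43 in Lgr6+ progenitors. The ratio of FPKM for *Elavl4* was 2.25 toward Lgr6+ progenitors, while its difference of log2(FPKM + 1), Lgr6+ minus Lgr5+, was 0.57 and so just under the log2 value of 0.58 that stands for 1.5-fold. The added 1 understates the change of such a low gene, and with 0.1 in its place the difference was 1.05. *Elavl2*, the remaining neuronal member, had 0.178 and 2.11, a difference of 1.40. *Elavl1*, which is made in nearly all cell types, had 15.8 in Lgr5+ and 17.4 in Lgr6+ progenitors. The ubiquitous Elavl gene was therefore far above the 3 neuronal ones in each population, as the plot of the protein families shows.

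**Figure D1:**
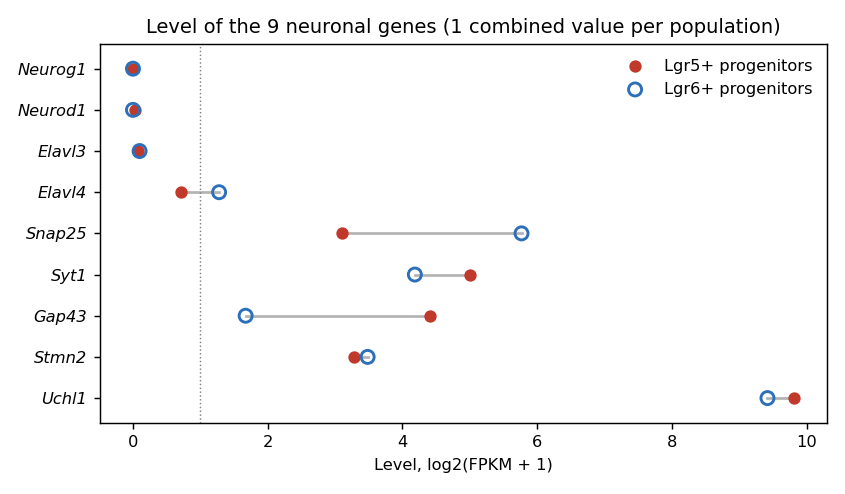
Level of each of the 9 genes as log2(FPKM + 1) on the horizontal axis, with a filled red point for Lgr5+ progenitors and an open blue circle for Lgr6+ progenitors, each 1 combined value with no error bar. The dotted line is an FPKM of 1. *Neurog1*, *Neurod1* and *Elavl3* lie left of it in both populations, *Uchl1* lies far to the right, and the open circle is far right of the red point for *Snap25* and far left of it for *Gap43*.

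*Snap25*, the plasma membrane SNARE that pairs with syntaxin and the vesicle SNARE, showed the largest difference toward Lgr6+ progenitors among the 9 genes. *Snap25* (chr2:136713450-136782428) had FPKM values of 7.63 in Lgr5+ and 53.4 in Lgr6+ progenitors. The ratio was 7.01 and the difference of log2(FPKM + 1) was 2.66, higher than that of 98.2% of the kept genes. *Snap25* was at rank 7400 in the former and rank 1773 in the latter. *Syt1* (chr10:108497650-109010975), the calcium sensor of fast transmitter release, went the other way, with 31.0 in Lgr5+ and 17.2 in Lgr6+ progenitors. Its ratio was 1.81 toward Lgr5+ progenitors and its difference was -0.82. Both belong to the same fusion machinery, and the populations differed in opposite directions for them.

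Paralogs of *Snap25* that serve vesicle fusion in other tissues were also present. *Snap23*, the broadly expressed counterpart, had FPKM values of 15.3 in Lgr5+ and 7.50 in Lgr6+ progenitors, and *Snap47* had 22.6 and 43.1. *Snap29* had 3.24 and 1.91. In Lgr5+ progenitors *Snap25* was thus below *Snap23* and *Snap47*, and in Lgr6+ progenitors *Snap25* was the highest of the 4. Of the 17 synaptotagmins, 11 were kept, 4 were higher in Lgr6+ progenitors by 1.5-fold or more and 2 in Lgr5+ progenitors. These are 36.4% and 18.2%, beside 28.5% and 23.3% of all 13436 kept genes. Of the 4 genes, 1 was kept only through Lgr6+ progenitors. *Syt1* was the highest synaptotagmin in Lgr5+ progenitors. *Syt6*, with 10.04 and 20.2, and *Syt13*, with 25.2 and 18.9, were the other highest, and both exceeded *Syt1* in Lgr6+ progenitors. *Syt5* was the other synaptotagmin higher in Lgr5+ progenitors, with 12.9 against 2.30.

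The growth cone pair gave unlike values. *Gap43* (chr16:42248561-42340651), a membrane phosphoprotein of growing axons, had FPKM values of 20.3 in Lgr5+ and 2.19 in Lgr6+ progenitors. The ratio was 9.30 toward Lgr5+ progenitors and the difference of log2(FPKM + 1) was -2.74, and only 0.558% of the kept genes had a lower difference. The values of *Gap43* came to 193 steps in Lgr5+ and 66.5 in Lgr6+ progenitors. *Stmn2* (chr3:8509527-8561604), which loosens microtubules in growth cones, had 8.74 in Lgr5+ and 10.2 in Lgr6+ progenitors, a ratio of 1.16. *Stmn2* was therefore under 1.5-fold, whereas *Gap43* and *Snap25* had the widest gaps of the 9 genes, *Gap43* the wider except with the same sum of FPKM, where *Snap25* was at 2.95 and *Gap43* at -2.64.

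Most relatives of both genes were more abundant than the members themselves. *Basp1*, a membrane protein that acts like Gap43 at the growth cone, had 65.6 in Lgr5+ and 33.3 in Lgr6+ progenitors, a difference of -0.96. *Marcks* had 87.2 and 77.8 and *Marcksl1* had 361 and 336, and which population was higher for these depended on the scaling. *Stmn1*, the stathmin of dividing cells, had 279.7 and 319, *Stmn3* had 80.5 and 54.2, and *Stmn4* was listed at 0 in both. No stathmin reached 1.5-fold.

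**Figure D2:**
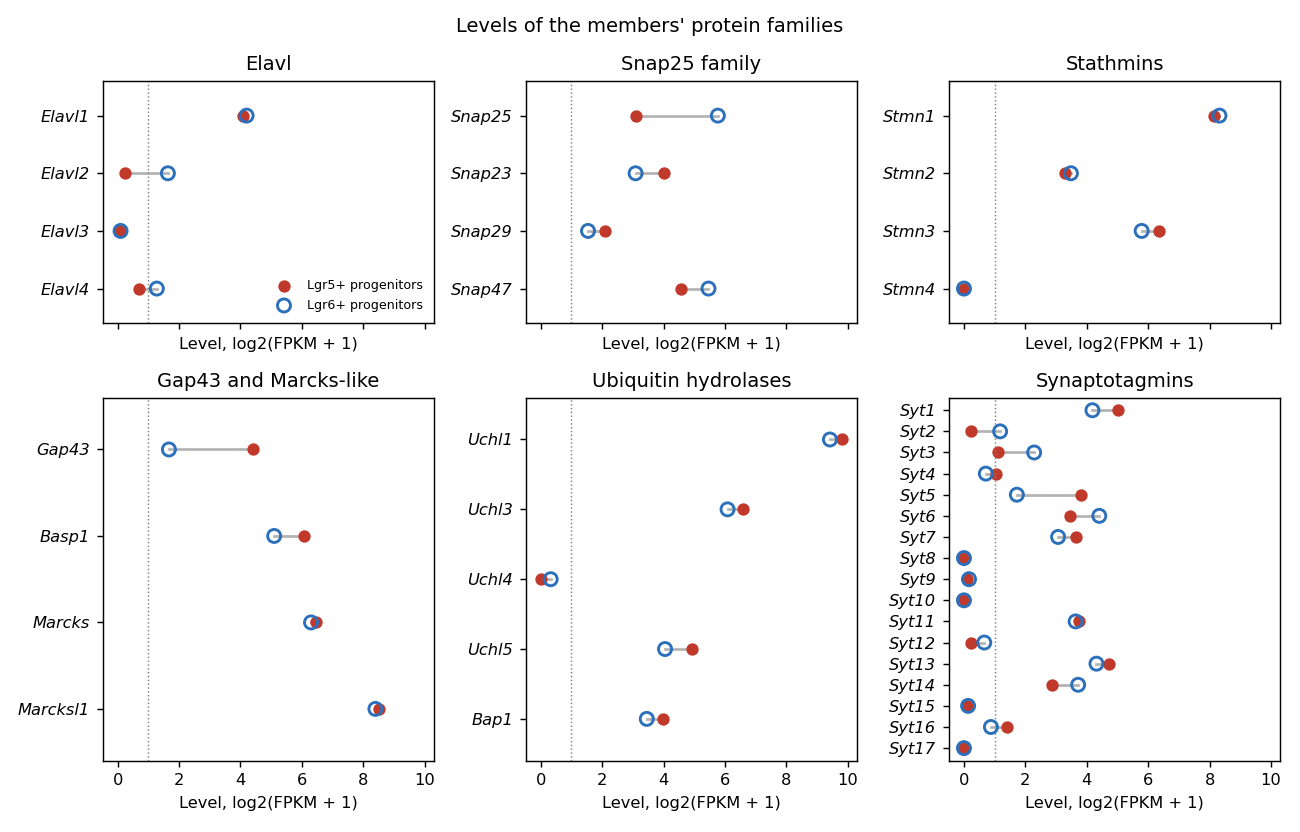
Level of each gene of 6 protein families as log2(FPKM + 1), with a filled red point for Lgr5+ progenitors and an open blue circle for Lgr6+ progenitors, each 1 combined value, and a dotted line at an FPKM of 1. *Elavl1* lies far right of the neuronal *Elavl* genes, *Uchl1* is the rightmost hydrolase, and *Gap43* and *Snap25* have the widest gaps between the populations in their families.

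*Uchl1*, the deubiquitinating enzyme also known as PGP9.5, had FPKM values of 901 in Lgr5+ and 683 in Lgr6+ progenitors. The ratio was 1.32 toward Lgr5+ progenitors and the difference of log2(FPKM + 1) was -0.40, under 1.5-fold. *Uchl1* alone made up 92.9% of the summed FPKM of the 9 genes in Lgr5+ progenitors and 89.0% in Lgr6+ progenitors, so a sum over these genes is mostly a value of *Uchl1*. Without it the sum was 68.4 in Lgr5+ and 84.5 in Lgr6+ progenitors. *Uchl3*, the closest relative outside neurons, had 94.0 and 66.7, *Uchl5*, a proteasome-bound hydrolase, had 29.2 and 15.5, and *Bap1*, a nuclear hydrolase, had 14.7 and 9.94. *Uchl4* had 0.251 in Lgr6+ progenitors and was listed at 0 in the other population. All 4 kept hydrolases were higher in Lgr5+ progenitors, *Uchl5* by more than 1.5-fold. The FPKM of all genes summed to 754163 in Lgr5+ and 627932 in Lgr6+ progenitors. With the same sum of FPKM the difference of *Uchl1* was -0.14, and after quantile normalization it was -0.013.

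The interval listed for *Uchl1* (chr5:66626495-66687234) is wider than the gene, which RefSeq places at chr5:66676121-66687234. The interval begins at the start of *Uchl1os*, a long noncoding RNA of the opposite strand that overlaps the 5′ end of *Uchl1* and was listed at 0 in both populations. The library kit does not mark strand, so fragments from the overlap of the pair cannot be told apart. RefSeq also places the noncoding *Gm32659* over the start of *Snap25* and *Gm36601* over one end of *Syt1*, and neither has a row in the table.

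Of the 6 kept genes, 1 was higher in Lgr6+ progenitors by 1.5-fold or more on the log2(FPKM + 1) scale, *Snap25*, and 2 were higher in Lgr5+ progenitors by 1.5-fold or more, *Syt1* and *Gap43*. Over all 13436 kept genes, 28.5% were that much higher in Lgr6+ progenitors and 23.3% in Lgr5+ progenitors, so a count of 3 of 6 is close to the 51.8% of all kept genes that passed in either direction. The median difference of the 6 genes was -0.10, beside 0.035 over all kept genes. At 2-fold, which 18.2% and 11.7% of the kept genes passed, *Snap25* and *Gap43* remained. With each population scaled to the same sum of FPKM, the difference of *Syt1* was -0.57, just under 1.5-fold. With the same sum, the share of all kept genes past 1.5-fold also shifted, to 38.7% higher in Lgr6+ and 16.8% in Lgr5+ progenitors. Each population had the higher value for 3 of the 6 genes. In sorted cells pooled for RNA, fewer cells of a type and less RNA per cell cannot be told apart.

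**Figure D3:**
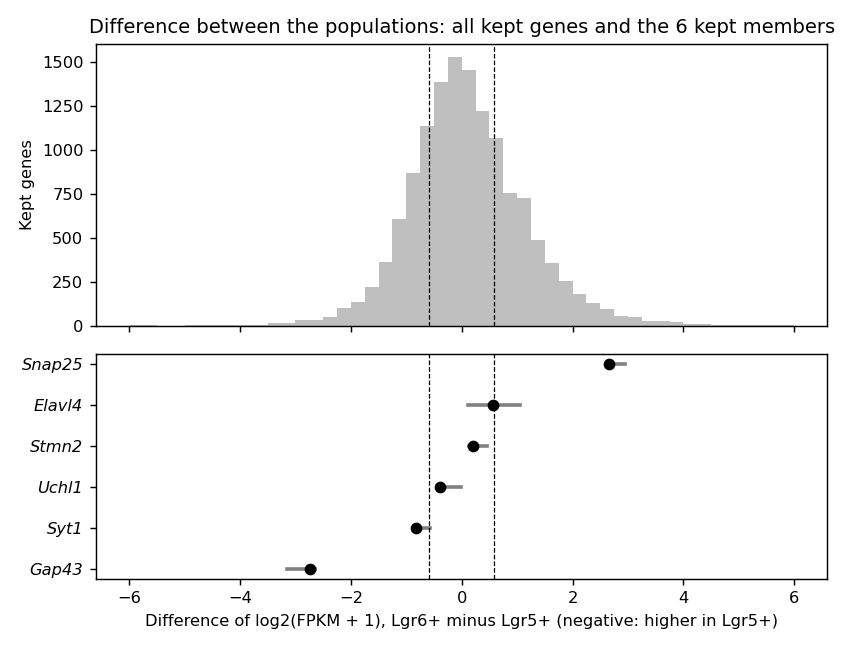
The upper panel counts kept genes in bins of the difference of log2(FPKM + 1), Lgr6+ minus Lgr5+, with values past either end counted in the end bins. The lower panel gives the 6 kept genes, a black point for the value as reported and a grey bar from the lowest to the highest value over the settings tried, and dashed lines mark 1.5-fold. *Snap25* at 2.66 and *Gap43* at -2.74 lie in opposite tails, and the bars of *Elavl4* and *Syt1* cross a dashed line.

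The order of the levels changed between the populations. In Lgr5+ progenitors the order was *Uchl1*, *Syt1*, *Gap43*, *Stmn2*, *Snap25*, *Elavl4*, *Elavl3*, *Neurod1* and *Neurog1*. In Lgr6+ progenitors *Snap25* was second and *Gap43* came after *Stmn2*. Whether neighbours in these orders, such as *Stmn2* and *Snap25* in Lgr5+ progenitors, differ beyond the spread between replicates is not known. In the other neuronal lists used here, the gene nearest to *Stmn2* over both levels was *Rbfox2*, at a distance of 0.19 in log2(FPKM + 1). The nearest gene was *Stx1a* for *Syt1*, *Kcna1* for *Elavl4*, *Cplx2* for *Gap43*, *Srrm4* for *Snap25* and *Sncg* for *Uchl1*, at distances from 0.47 to 2.02. This likeness rests on 2 values per gene.

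The wider neuronal lists held 96 genes that are not among the 9, of which 68 were kept. Of these 25 were higher in Lgr6+ progenitors by 1.5-fold or more and 12 in Lgr5+ progenitors, which is 36.8% and 17.6%, with a median difference of 0.13. The same shares over all kept genes were 28.5% and 23.3%. With the same sum of FPKM those of all kept genes moved to 38.7% and 16.8%. The shares of the 68 genes were not computed at that scaling, so these last values cannot be set beside theirs. Of the 25 genes, 10 were below an FPKM of 1 in Lgr5+ progenitors, and of the 12, 7 were below it in Lgr6+ progenitors, so these were kept only through the population where they were higher. Genes that define neurons gave mixed values. *Tubb3*, the neuronal tubulin, had FPKM values of 1.18 in Lgr5+ and 0.0959 in Lgr6+ progenitors. *Pou4f1*, a factor of spiral ganglion neurons, had 1.20 and 0.127. *Slc17a6*, a vesicular glutamate transporter of these neurons, had 1.70 in Lgr6+ progenitors and was listed at 0 in the other population, and its relative *Slc17a7* was listed at 0 in both. The neurofilaments were higher, with 60.2 and 45.2 for *Nefm* and 15.2 and 14.7 for *Nefl*. *Rbfox3*, the antigen known as NeuN, had 11.7 and 18.0. Of these genes, *Nefm*, *Nefl* and *Rbfox3* were thus well above an FPKM of 1 in both populations. *Tubb3*, *Pou4f1*, *Slc17a6* and *Slc17a7* were near it or below. All of them except *Pou4f1* were named after their values were seen.

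Among 20 spiral ganglion markers, 14 were kept, 9 were higher in Lgr6+ progenitors by 1.5-fold or more and 2 in Lgr5+ progenitors, with a median difference of 1.07. This is 64.3% and 14.3% of those kept, beside the 28.5% and 23.3% of all genes, but 5 of the 9 and both of the 2 were kept only through the population where they were higher, so the filter partly sets this count and median. The highest were the calcium buffers *Calb1*, with 34.1 and 249.7, and *Calb2*, with 27.6 and 165, which hair cells also make. *Ntrk3*, the receptor of neurotrophin-3, had 7.62 in Lgr6+ progenitors and was listed at 0 in the other population. *Ngfr*, the low-affinity neurotrophin receptor, had 2.04 and 0.531. Of 20 other neuronal transcription factors 10 were kept, 4 were higher in Lgr6+ progenitors and 5 in Lgr5+ progenitors, with a median of -0.33. These are 40% and 50%, beside the same 28.5% and 23.3%. However, 1 of the 4 and 3 of the 5 were kept only through the population where they were higher. *Isl1*, with 233 and 117, and *Isl2*, with 89.8 and 54.0, were the highest, and *Isl1* is also a factor of the sensory epithelium. *Insm1*, a zinc finger factor of neurons, endocrine cells and outer hair cells, had 2.83 and 10.5, and *Insm2* had 1.87 in Lgr6+ progenitors and was listed at 0 in the other population. *Tlx3* had 1.34 and 0.117.

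The cytoskeletal and vesicle lists surround *Gap43*, *Stmn2*, *Snap25* and *Syt1* by function. Of 20 cytoskeletal genes 18 were kept, 4 were higher in Lgr6+ progenitors and 5 in Lgr5+ progenitors by at least 1.5-fold, and the median was -0.07. The shares of 22.2% and 27.8% were close to the 28.5% and 23.3% of all kept genes. Of these genes, 1 of the 4 and 3 of the 5 were kept only through the population where they were higher. *Tubb2b*, a tubulin of young neurons, had FPKM values of 82.0 in Lgr5+ and 19.0 in Lgr6+ progenitors, and *Mapt*, the axonal tau protein, had 2.55 and 0.0917. The dendritic *Map2* had 6.57 and 14.8 and *Ank2* had 3.05 and 7.29. *Sncg*, a synuclein, was the highest, with 285 and 307. Of 25 genes of the synaptic vesicle cycle 19 were kept, 6 were higher in Lgr6+ progenitors and 1 in Lgr5+ progenitors, and the median was 0.34. The shares were 31.6% and 5.26%, beside the same 28.5% and 23.3%. Of the 6 genes, 2 were kept only through Lgr6+ progenitors. *Syn1*, which tethers vesicles, had 0.115 and 3.06. *Cplx2*, which clamps the SNARE complex, was the 1 gene higher in Lgr5+ progenitors, with 12.9 and 5.58, and *Rab3c* had 1.79 and 1.01. The vesicle SNARE *Vamp2*, with 36.0 and 37.8, was the highest, and *Rab3a*, with 22.8 and 32.9, was the next highest in Lgr6+ progenitors. The difference of *Rab3a* was 0.51, under 1.5-fold, and reached 0.77 with the same sum of FPKM.

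The Rest complex and the RNA regulators were looked at beside the members. Rest is the repressor that keeps neuronal genes silent in other tissues. *Rest* had FPKM values of 21.2 in Lgr5+ and 6.51 in Lgr6+ progenitors, a difference of -1.56. Of the 12 genes of the Rest complex, all of which were kept, 4 were higher in Lgr5+ progenitors and 1, the corepressor *Rcor2* with 2.11 and 10.5, was higher in Lgr6+ progenitors. The shares were 33.3% in Lgr5+ and 8.33% in Lgr6+ progenitors, beside 23.3% and 28.5% of all kept genes. The phosphatase *Ctdsp2* had 42.2 and 19.7, and the most abundant genes of the complex, *Hdac2* with 106 and 73.9 and *Kdm1a* with 79.4 and 57.1, stayed under 1.5-fold. The median difference of the complex was -0.41. Of 14 neuronal RNA regulators 10 were kept, 4 were higher in Lgr6+ progenitors and 0 in Lgr5+ progenitors, with a median of 0.24. These are 40% and 0%, beside 28.5% and 23.3% of all kept genes. Of the 4 genes, 2 were kept only through Lgr6+ progenitors. *Ptbp1*, the splicing repressor of non-neuronal cells, had 118 and 90.0, and its neuronal counterpart *Ptbp2* had 59.4 and 65.9. *Nova1*, a neuronal splicing factor, had 0.0186 and 1.08, and *Khdrbs2* had 7.55 and 5.34.

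**Figure D4:**
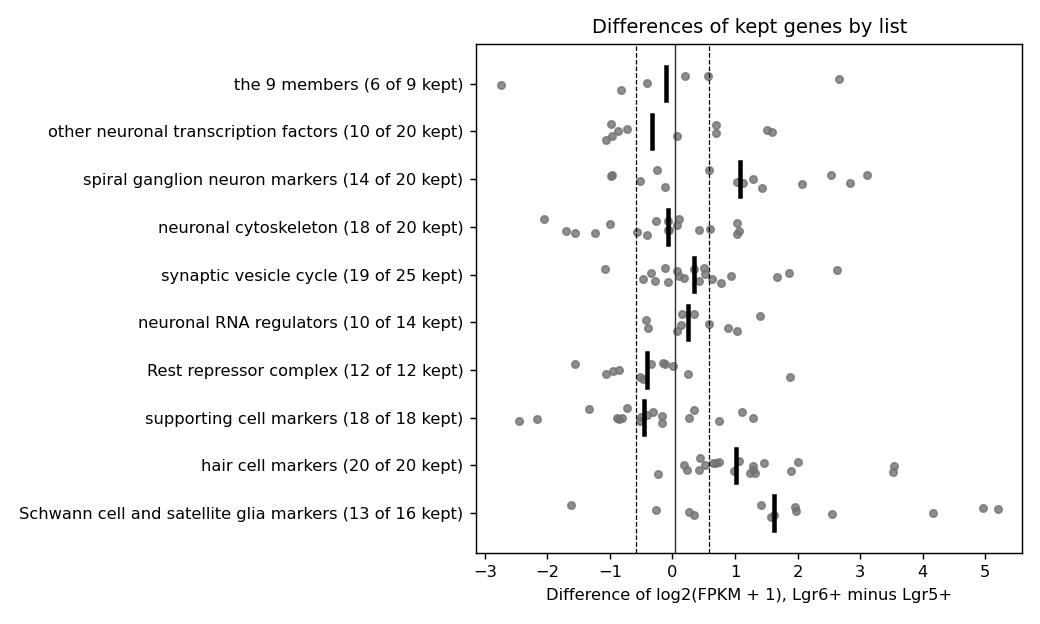
Difference of log2(FPKM + 1), Lgr6+ minus Lgr5+, for every kept gene of each list, 1 grey point a gene, with a thick bar at the median of the list, a thin line at the median of all kept genes and dashed lines at 1.5-fold. The points of the 9-gene list spread to both sides, and the medians of the hair cell and glial lists lie at 1.02 and 1.62.

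Markers of other cell types of the cochlea differed between the populations as well. All 20 hair cell markers were kept, and 14 were higher in Lgr6+ progenitors by 1.5-fold or more and 0 in Lgr5+ progenitors, with a median of 1.02. These are 70% and 0%, beside 28.5% and 23.3% of all kept genes. Like the other lists, this one was chosen with earlier results of these data known, so the choice may partly set these shares. The summed FPKM of the 20 hair cell markers was 3683 in Lgr5+ and 6847 in Lgr6+ progenitors. The largest differences were those of *Tmc1*, the transduction channel, with 1.06 and 23.1, and *Cabp2*, with 3.36 and 49.4, while *Pcp4*, with 1337 and 3277, and *Cib2*, with 776 and 1051, were the highest. For *Pvalb*, with 477 and 408, the higher population depended on the scaling. Of 16 Schwann cell and satellite glia markers 13 were kept, 9 were higher in Lgr6+ progenitors and 1, *Egr2* with 62.5 and 19.7, in Lgr5+ progenitors. The shares of the 13 kept were 69.2% higher in Lgr6+ and 7.69% in Lgr5+ progenitors. Of these 9 genes, 5 were below an FPKM of 1 in Lgr5+ progenitors, so they were kept only through Lgr6+ progenitors. The summed FPKM of the 16 markers was 683 in Lgr5+ and 1826 in Lgr6+ progenitors. The myelin gene *Pmp22*, with 0.784 and 64.5, differed most, *Fabp7* had 446 and 1370, *Cdh19*, *Prx* and *Mal* were listed at 0 in Lgr5+ progenitors, and *Foxd3* was listed at 0 in Lgr6+ progenitors. Cells were sorted on EGFP, and the study checked the sorted cells by a second sort and by staining for Myo7a, a hair cell protein, and Sox2. It reports high purity, no staining for Myo7a and staining for Sox2 in nearly all sorted cells. Its q-PCR found a hair cell marker gene lower, and *Sox2* higher, than in cells sorted as negative. In the table *Myo7a* had 19.3 and 47.0, which is RNA and not the stained protein. The part of hair cells or glia in the values of *Snap25*, *Gap43* and the other members was not tested.

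The identity genes of the sort were checked in the same table. *Lgr6* had FPKM values of 2.06 in Lgr5+ and 2.90 in Lgr6+ progenitors. *Lgr5* had 9.65 in Lgr5+ and 24.99 in Lgr6+ progenitors, so the gene that names the Lgr5+ population was higher in the other one. The paper describes Lgr6+ cells as a subset of Lgr5+ progenitors, so by its account *Lgr5* is not particular to the Lgr5+ sort. Its q-PCR found each named Lgr gene higher in sorted cells than in cells sorted as negative, which is another comparison. *Sox2*, the marker of supporting cells, had 139.6 and 54.8. Of 18 supporting cell markers, all kept, 7 were at least 1.5-fold higher in Lgr5+ and 3 in Lgr6+ progenitors, with a median of -0.46 and a sum of 3305 against 2298. The shares were 38.9% in Lgr5+ and 16.7% in Lgr6+ progenitors, beside 23.3% and 28.5% of all kept genes. The largest differences were those of *Hes5*, with 505 and 91.7, and *Hey2* toward Lgr5+ progenitors and of *Lgr5* and *Anxa5* toward Lgr6+ progenitors, and *Tectb* was the highest.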

How the data were processed

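RNA-Seq of Lgr5+ and Lgr6+ progenitors was read from 1 table of the whole series. The FPKM values were deposited by the authors as 1 combined value per population, made with Trimmomatic, TopHat and Cufflinks, whose versions are not given in the sources used here. The methods name mm9 and the labels mm10. The intervals of all 9 genes overlapped RefSeq of GRCm38.p6, and 2 overlapped GENCODE of NCBIM37, so positions are given as GRCm38 and counted from 1. The table also lists a fold change, p-value and q-value from the authors' own comparison, which were not used. It holds no counts and no value per library, so the depth behind each value is not known, beyond the range of reads per sample that the paper states, and no error is given.

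A gene was kept if either population reached an FPKM of 1. Differences are log2(FPKM + 1) in Lgr6+ minus Lgr5+ progenitors, and 1.5-fold, a threshold the study used together with a p-value, was the call. Alternatives were a pseudocount of 0.1, no filter, an FPKM of 5 in place of 1, scaling to the same sum, to the same upper quartile or by quantiles, 2-fold, and, added after seeing the data, an FPKM of 1 reached in both populations. The members and lists were chosen with earlier results of these data known. Named were the 9 members, their families (of the synaptotagmins the 3 highest), the identity genes *Lgr5*, *Lgr6* and *Sox2*, the nearest gene of each kept member, and of each list the 2 largest differences each way and the 2 highest genes, some of which are not reported here. *Syt5*, *Tubb3*, *Slc17a6*, *Slc17a7*, *Nefl*, *Nefm*, *Rbfox3*, *Myo7a* and the marker genes listed at 0 were named after their values were seen. Transcript lengths came from GENCODE and promoter windows from RefSeq. Python 3.11.15, numpy 2.4.6, pandas 2.3.3 and matplotlib 3.10.9 were used. The arithmetic of the calls and scalings was checked on copied Lgr5+ values with known changes and no noise. That check does not bear on how often a call is in error.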

Additional observations from a re-analysis of the deposited data

How the results depend on the processing

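The difference of *Snap25* stayed between 2.64 and 2.95 and that of *Gap43* between -3.16 and -2.64 over the 9 settings, past the fold threshold in each. Only the pseudocount and the scalings can change the difference of a gene. The filters and the 2-fold threshold leave it as it was, so those settings do not bear on its stability. *Elavl4* ran from 0.12 to 1.05 and passed the fold threshold of the setting in 2 of the 7 that kept it. *Syt1* ran from -0.85 to -0.57 and passed in 7 of 9, all but the same sum of FPKM and the 2-fold setting. *Stmn2* and *Uchl1* passed in none of the 9. No member changed sign. The number higher in Lgr6+ progenitors was 2 with a pseudocount of 0.1 and 2 with the same sum of FPKM, against 1, the gene added being *Elavl4*. The number higher in Lgr5+ progenitors was 1 with the same sum of FPKM and 1 at 2-fold, against 2. The median difference, -0.10, was 0 with no filter, -0.40 with a minimum FPKM of 5, 0.052 after quantile normalization, 0.16 with the same sum of FPKM, and -0.40 with an FPKM of 1 reached in both populations, a setting added after seeing the data. Scaling to the same sum moved the median of all kept genes from 0.035 to 0.30, and 5402 genes were then higher in Lgr6+ and 2348 in Lgr5+ progenitors, against 3826 and 3136. The other 14 of 23 counts and medians stayed within 1.5 times or within 0.1. No paired analysis was possible because the table holds 1 combined value per population and the results come from no test, and for the same reason no replicate was left out.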
